A study of Homo sapiens with 6 samples.

Results

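Surface or secreted proteins through which lymphocytes and macrophages read a tumour cell were followed at the RNA level in Ewing sarcoma cells with high or low EWSR1::FLI1. The 10 genes were taken by symbol from the 26364 gene symbols of the expression table: CD274, PDCD1LG2 and CD276 of the B7 family, CD47, the nectin-type molecules PVR and PVRL2 (the older symbol of NECTIN2), the integrin ligand ICAM1, the NKG2D ligands MICA and MICB, and LGALS9. RNAseq was done on A673/TR/shEF cells, a derivative of the Ewing sarcoma line A673, which carries the EWSR1::FLI1 fusion, with a tetracycline repressor and a doxycycline-inducible shRNA against the chimeric mRNA. Of the 6 libraries, 3 came from cells without doxycycline (EWSR1::FLI1 high) and 3 from cells kept in doxycycline (1 µg/mL) over 72 h, the EWSR1::FLI1 low group, so all of them share the line, the repressor and the shRNA construct. No library of cells given doxycycline without this shRNA was used, so the drug and the knockdown cannot be told apart. Values given for each library run in the order of replicates 1, 2 and 3. The series describes the 3 samples of a condition as independent clones while the sample names number them as experiments, and p-values therefore measure the spread between these samples, which may be technical.

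Checkpoint ligands hold back immune cells through inhibitory receptors. PD-L1 (CD274) and PD-L2 (PDCD1LG2) bind PD-1 on T cells, CD47 binds SIRPα on macrophages and is known as a "do not eat me" signal, and galectin-9 (LGALS9) binds TIM-3, whereas MICA and MICB engage the activating receptor NKG2D of natural killer (NK) cells and ICAM-1 anchors lymphocytes through the integrin LFA-1. Transcription of CD274 and ICAM1 is known to respond to interferon-γ signalling and to NF-κB, and EWSR1::FLI1 is a fusion transcription factor with an ETS DNA-binding domain that acts on single ETS sites and on GGAA repeats.

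The promoter stretches of CD274 and ICAM1 are shown because, among the members with a promoter to search, these held the letters searched for as interferon and NF-κB motifs. Both genes also differed widely between EWSR1::FLI1 low libraries. PDCD1LG2 had no promoter entry and was not searched. The sequences are those of RefSeq (GRCh38.p14), were located by exact match in GRCh37, are written 5′ to 3′ on the plus strand, and lie outside annotated exons. CD274 is shown at chr9:5450322-5450441, from 220 to 101 bases before the RefSeq start, and ICAM1 at chr19:10381596-10381745, from 200 to 51 bases before its start. Capitals mark every match to a searched motif on either strand: GAAANNGAA (interferon response), TTCNNNGAA (gamma-activated site), GGAAATTCC (NF-κB) and CCGGAA (ETS core with its flank).
CD274: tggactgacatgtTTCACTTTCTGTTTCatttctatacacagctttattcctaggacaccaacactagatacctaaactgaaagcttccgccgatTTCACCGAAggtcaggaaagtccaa
ICAM1: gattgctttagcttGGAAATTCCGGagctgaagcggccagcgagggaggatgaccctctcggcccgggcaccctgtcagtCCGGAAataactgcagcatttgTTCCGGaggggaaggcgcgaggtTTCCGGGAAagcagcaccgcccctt

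In CD274 the run of capitals nearest the 5′ end is a pair of overlapping GAAANNGAA matches on the minus strand, beginning 207 and 201 bases before the start, and the second is a TTCNNNGAA match at 125 bases. In ICAM1 a GGAAATTCC match begins 186 bases before the start and overlaps a CCGGAA match at 181 on the minus strand, further CCGGAA matches begin at 120, 98 and 75 bases, and the one at 75 overlaps a TTCNNNGAA match. Over the 250 bases before the start of 35116 RefSeq promoters, GGAAATTCC was present in 0.413%, GAAANNGAA in 6.88%, TTCNNNGAA in 6.57% and CCGGAA in 14.5%. Of the 10 genes, 9 (all but PDCD1LG2) had a promoter in the table, with 10 windows in all. CCGGAA was present in 4 of the 10 windows, those of ICAM1, MICA and MICB and 1 of CD276, while GGAAGGAA, a tandem of the ETS core found in 3.06% of promoters, was in 0 of the 10. A match is a run of letters and was not tested as a binding site.

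Reads on genes ranged from 7800264 to 10264638 in EWSR1::FLI1 high libraries and from 6980361 to 16658933 in EWSR1::FLI1 low libraries. FLI1, which gives the 3′ part of the fusion and on which the check of the knockdown rests, lay between 11.3 and 14.2 FPKM in EWSR1::FLI1 high and between 2.91 and 4.29 FPKM in EWSR1::FLI1 low libraries. All 9 markers of Ewing sarcoma cells examined were below every EWSR1::FLI1 high library in every EWSR1::FLI1 low library. The share of all genes below in this way was not counted. EWSR1::FLI1 low replicate 1 alone was below every EWSR1::FLI1 high library for 49.99% of all genes tested. Of the 9 markers, 6 fell at an adjusted p under 0.01 (limma), against 3.37% of all genes tested. EWSR1::FLI1 low replicate 1 stood apart: 57.0% of the 15504 genes tested had their lowest EWSR1::FLI1 low value in it. Its FPKM values summed to 255956, against 334614 to 366060 in the other libraries. Its sample quality weight in limma was 0.172, against 2.79 in EWSR1::FLI1 low replicate 2 and 0.463 in replicate 3. EWSR1::FLI1 high libraries had weights from 0.911 to 2.32. Within the EWSR1::FLI1 low group, fits with these weights therefore rest mostly on replicate 2. Most leukocyte markers were low, 14 of 17 below 1 FPKM in every library and PTPRC, the pan-leukocyte gene CD45, at most 0.667 FPKM, with NKG7 at 0 in 3 libraries. The highest value of any of the 17 was 2.77 FPKM. Of the 2 markers tested, 0 were called at an adjusted p under 0.01 and 1 was lower at an adjusted p under 0.05 (log2 fold change -1.03, limma). The summed level of the 17 ranged from 5.47 to 6.96 FPKM in EWSR1::FLI1 high and from 3.51 to 11.1 FPKM in EWSR1::FLI1 low libraries, the highest in EWSR1::FLI1 low replicate 1.

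Both PD-1 ligands were higher in every EWSR1::FLI1 low than in every EWSR1::FLI1 high library, with ratios of the means of 6.22 for CD274 and 6.25 for PDCD1LG2. MICA (ratio 2.01) and CD276 (ratio 1.48) did not overlap between the groups either, while the other members did. None of the 9 members with a mean of at least 0.5 FPKM passed an adjusted p under 0.01 in limma on log2(FPKM + 1). At this limit 4.51% of all genes tested rose and 3.37% fell. At an adjusted p under 0.05, 2 of the 9 (CD274 and PDCD1LG2) were higher, against 9.87% of all genes, and 4 of the 9 had an unadjusted p under 0.05, against 34.3% of all genes in either direction. In limma-voom on the reads recovered from the FPKM values, the same 2 passed 0.01, where 6.1% of all genes rose. Every EWSR1::FLI1 low library was above every EWSR1::FLI1 high library for 4 of the 9 members and for 17.5% of all genes. The median log2 fold change (EWSR1::FLI1 low against high, on the scale of log2(FPKM + 1), where the change of weakly expressed genes is understated) was 0.52 over the 9 members and -0.05 over all genes, and 9 of the 9 were above 0, against 45.2% of all genes.

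**Figure D1:**
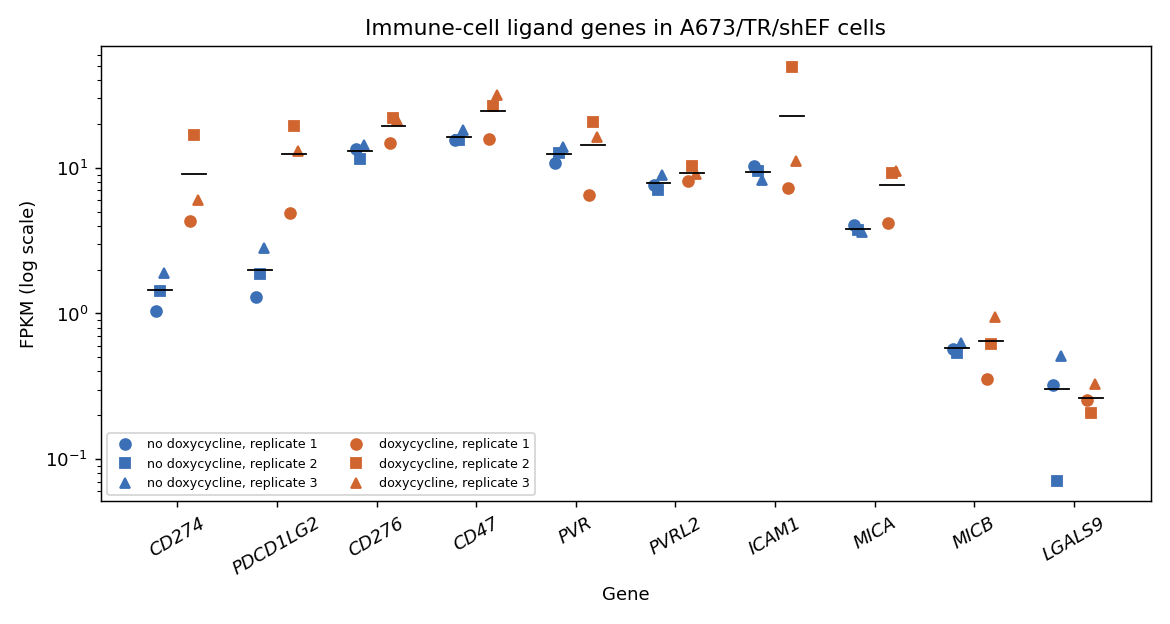
FPKM (log axis) of the 10 ligand genes in the 3 untreated (blue) and 3 doxycycline-treated (orange) libraries, with the replicate number given by the symbol and the group mean by a line. CD274, PDCD1LG2, CD276 and MICA do not overlap between the groups, ICAM1 stands out in 1 doxycycline library at 49.6 FPKM, and the FPKM of MICA and MICB goes with an implied gene length above the annotated one.

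CD274 (ENSG00000120217, chromosome 9, 5450503 to 5470566, plus strand, GRCh37) encodes PD-L1. Without doxycycline it had 1.03, 1.43 and 1.89 FPKM (40, 42 and 54 reads), and with doxycycline 4.33, 16.7 and 6.04 FPKM (142, 505 and 347 reads). The groups did not overlap, and within the EWSR1::FLI1 low group replicate 2 was 3.86 times replicate 1. In these bulk samples a larger number of cells with the transcript and more transcript per cell cannot be told apart. The group means were 1.45 ± 0.429 and 9.03 ± 6.70 FPKM (SD, n = 3 each), a ratio of 6.22, and the log2 fold change was 1.85 (95% interval 0.96 to 2.73, adjusted p = 0.0125, limma). Of all genes tested, 1.95% had a higher log2 fold change than CD274. The exact permutation test gave p = 0.1, the smallest that 3 against 3 libraries allow. In limma-voom on recovered reads the log2 fold change was 2.43 (adjusted p = 0.00375), without EWSR1::FLI1 low replicate 1 it was 2.2 (adjusted p = 0.00323, limma) and without replicate 2, its highest library, 1.34 (adjusted p = 0.00466, limma). Over the 15 alternative fits the adjusted p of CD274 ranged from 7.58e-05 to 0.0476.

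PDCD1LG2 (ENSG00000197646, chromosome 9, 5510531 to 5571282, plus strand), which encodes PD-L2, lies 39964 bases downstream of CD274 on the same strand. Its untreated libraries had 1.30, 1.87 and 2.83 FPKM and its doxycycline libraries 4.88, 19.5 and 13.1 FPKM. As for CD274, the groups did not overlap, replicate 1 was the lowest and replicate 2 the highest of the EWSR1::FLI1 low libraries, with 3.996 times between them. The ratio of the means was 6.25 and the log2 fold change 2.02 (95% interval 1.09 to 2.96, adjusted p = 0.0106, limma, exact permutation p = 0.1). Limma-voom gave 2.52 with an adjusted p of 0.00398, and without EWSR1::FLI1 low replicate 1 limma gave 2.54 with an adjusted p of 0.000346. Without replicate 2, its highest library, limma gave 1.63 with an adjusted p of 0.0174, above the limit of 0.01. Over its 15 alternative fits the adjusted p ranged from 3.46e-05 to 0.0438. The counts behind both PD-1 ligands in EWSR1::FLI1 high cells were low, from 33 to 54 reads per library.

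Genes tested within 500000 bases of the PD-1 ligands had smaller log2 fold changes, and were named after their values were seen. JAK2, which encodes a kinase of the interferon-γ receptor and is separated from CD274 by other genes, differed by 0.34 on the log2 scale (adjusted p = 0.335, limma). INSL4 and RLN1, which lie between JAK2 and CD274, had -0.17 and -0.31 (adjusted p = 0.572 and 0.340, limma). PLGRKT, a plasminogen receptor gene on the opposite strand just before CD274, was lower in EWSR1::FLI1 low cells with -0.74 (adjusted p = 0.0305), while RIC1 and ERMP1 downstream of PDCD1LG2 had 0.15 and 0.21 (adjusted p = 0.601 and 0.606). Among the genes within 500000 bases, KIAA2026 was the only other one above 0 with an adjusted p under 0.05 (0.58, adjusted p = 0.0412). No difference between these genes and the PD-1 ligands was tested.

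CD276 (ENSG00000103855, chromosome 15, 73976307 to 74006855, plus strand) encodes B7-H3, a B7-family protein abundant on many solid tumours. It had 13.5, 11.4 and 14.4 FPKM without doxycycline and 14.8, 22.0 and 21.5 FPKM with it. The groups did not overlap, but replicate 1 with doxycycline lay close to the highest untreated library. The log2 fold change of 0.52 (95% interval 0.05 to 0.99) had an adjusted p of 0.111 in limma and an exact permutation p of 0.1. CD276 was called at 0.01 with quantile normalization (0.62, adjusted p = 0.00705, limma) and with sample quality weights (0.71, adjusted p = 0.00211), and its adjusted p ranged from 0.00211 to 0.327 over the 15 alternative fits. In EWSR1::FLI1 high cells the mean deposited FPKM was 13.1 for CD276 RNA, against 1.45 for CD274 RNA. Scaled to the annotated exon length, these means would be 9.14 and 1.54 FPKM.

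CD47 (ENSG00000196776, chromosome 3, 107761938 to 107810709, minus strand) had the highest deposited FPKM of the members in EWSR1::FLI1 high cells. The untreated libraries had 15.5, 15.7 and 18.1 FPKM, and the doxycycline libraries 15.8, 26.6 and 31.7 FPKM. EWSR1::FLI1 low replicate 1 lay within the range of the untreated libraries and the other doxycycline libraries above it. The log2 fold change was 0.51 (95% interval -0.07 to 1.09, adjusted p = 0.198, limma), and without that library it was 0.79 (adjusted p = 0.00613, limma; range over the 15 alternatives 0.00256 to 0.400).

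PVR and PVRL2, the proteins CD155 and CD112, are seen by the activating receptor DNAM-1 and by the inhibitory receptor TIGIT. PVR (ENSG00000073008, chromosome 19, 45147098 to 45169430, plus strand) had 10.8, 12.6 and 13.9 FPKM without doxycycline and 6.51, 20.5 and 16.4 FPKM with it. The EWSR1::FLI1 low libraries lay on both sides of the untreated range. The log2 fold change was 0.08 with a 95% interval from -0.72 to 0.88 (adjusted p = 0.906, limma), and it was 0.53 without EWSR1::FLI1 low replicate 1 and -0.22 without replicate 2. PVRL2 (ENSG00000130202, chromosome 19, 45349432 to 45392480, plus strand) varied least, from 7.05 to 8.92 FPKM without and from 8.15 to 10.4 FPKM with doxycycline, with overlapping groups. Its log2 fold change was 0.20 (95% interval -0.19 to 0.60, adjusted p = 0.456, limma).

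**Figure D2:**
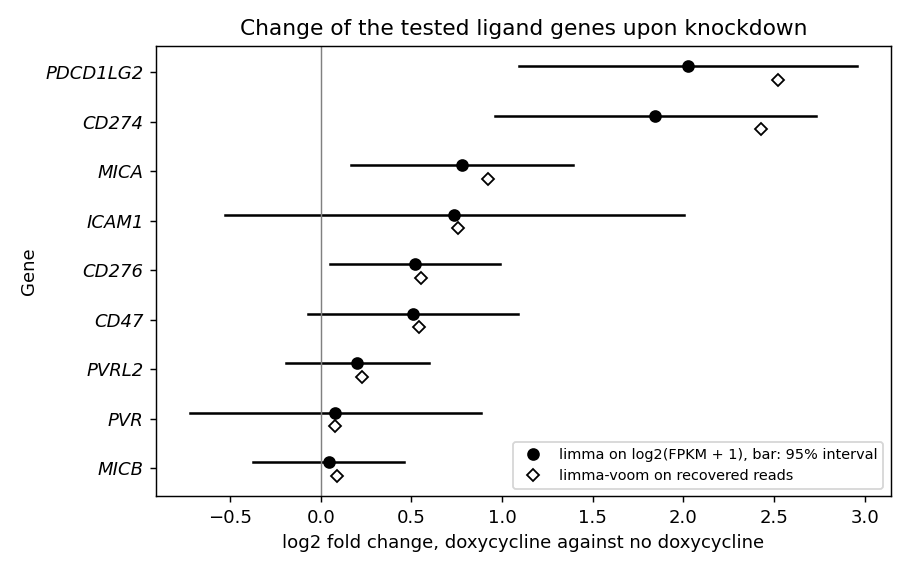
Log2 fold change of the 9 ligand genes tested, EWSR1::FLI1 low against high, from limma on log2(FPKM + 1) with its 95% interval (black) and from limma-voom on recovered reads (open diamonds). The intervals of PDCD1LG2, CD274, MICA and CD276 lie above 0, and those of ICAM1, CD47, PVRL2, PVR and MICB include 0.

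ICAM1 (ENSG00000090339, chromosome 19, 10381769 to 10397291, plus strand) encodes the endothelial and tumour cell ligand of LFA-1. Untreated libraries had 10.3, 9.55 and 8.19 FPKM, and doxycycline libraries 7.28, 49.6 and 11.2 FPKM. One library, EWSR1::FLI1 low replicate 2, was 5.30 times the untreated mean, while replicate 1 lay below every untreated library and replicate 3 just above them. The mean with doxycycline, 22.7 ± 23.4 FPKM (SD, n = 3), therefore had an SD larger than itself. The log2 fold change was 0.74 (95% interval -0.53 to 2.0, adjusted p = 0.391, limma), and it was -0.04 (adjusted p = 0.938, limma) without EWSR1::FLI1 low replicate 2. With sample quality weights it was 1.84 (adjusted p = 0.00365, limma). Those weights were 2.79 for EWSR1::FLI1 low replicate 2 against 0.172 and 0.463 for replicates 1 and 3, so that fit leans on the 1 outlying library. The adjusted p ranged from 0.00365 to 0.938 over the 15 alternative fits. Among all genes tested, 0.174% had a log2(FPKM + 1) difference between EWSR1::FLI1 low replicates 2 and 3 as large as the 2.06 of ICAM1.

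**Figure D3:**
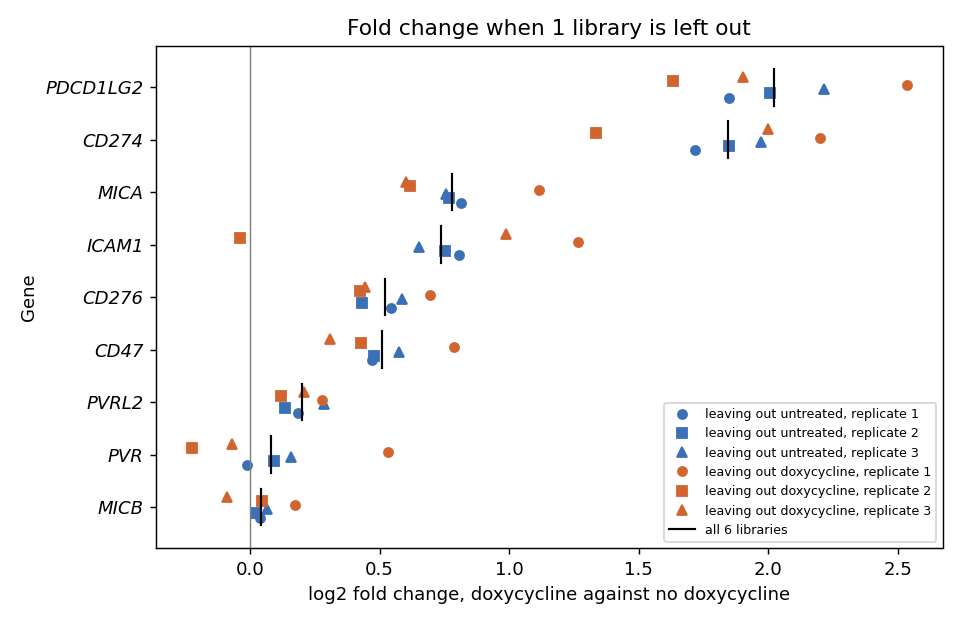
Log2 fold change of each ligand gene tested when 1 of the 6 libraries is left out (blue, an untreated library; orange, a doxycycline library; the symbol gives the replicate), beside the value from all libraries (black line). ICAM1 goes to -0.04 without doxycycline replicate 2, PVR goes from -0.22 to 0.53, and CD274 and PDCD1LG2 stay above 1.33.

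MICA (ENSG00000204520, chromosome 6, 31367561 to 31383092, plus strand) and MICB (ENSG00000204516, chromosome 6, 31462658 to 31478901, plus strand) are stress-induced NKG2D ligands. MICA had 4.03, 3.73 and 3.64 FPKM without doxycycline and 4.17, 9.28 and 9.50 FPKM with it. The untreated libraries were close together, doxycycline replicate 1 was just above them and the other doxycycline libraries more than 2 times higher. The log2 fold change was 0.78 (95% interval 0.17 to 1.39, adjusted p = 0.0747, limma, exact permutation p = 0.1), 0.92 with an adjusted p of 0.0406 in limma-voom, and 1.12 with an adjusted p of 0.00106 without EWSR1::FLI1 low replicate 1. Its adjusted p ranged from 0.000398 to 0.20 over the 15 alternative fits.

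MICB was at 0.568, 0.535 and 0.626 FPKM without doxycycline and at 0.354, 0.621 and 0.952 FPKM with it, with overlapping groups. Its log2 fold change was 0.04 (95% interval -0.37 to 0.46, adjusted p = 0.900, limma). The difference between the changes of MICA and MICB was not tested. Reads of these closely related genes may be split between them, and overlapping reads cannot be assigned from the deposited values.

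Levels of MICA and MICB against the other members depend on the length used. The gene length implied by reads and FPKM was 4.66 times the annotated exon length for MICA and 8.45 times for MICB, against 0.601 to 1.15 times for the other members and, between the 5th and the 95th percentile of 21035 genes, 0.327 to 1.23 times. On the annotated length MICA would be at 17.7 FPKM in EWSR1::FLI1 high and 35.7 FPKM in EWSR1::FLI1 low cells, the highest of the 10 genes in both groups. CD47 would be at 17.0 and 25.6 FPKM, and ICAM1, the next gene to MICA in EWSR1::FLI1 low cells, at 26.1 FPKM there. MICB would be at 4.87 and 5.43 FPKM. A ratio between libraries does not depend on the length, but the log2(FPKM + 1) fold change understates it more where FPKM is low. The cause of these lengths was not tested, so which of the values is nearer the true level cannot be told.

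LGALS9 (ENSG00000168961, chromosome 17, 25956824 to 25976586, plus strand) was near the floor of 3 reads. Without doxycycline it had 0.324, 0.0711 and 0.512 FPKM, and with it 0.255, 0.207 and 0.327 FPKM. These values stand for 6, 1, 7, 4, 3 and 9 reads, the groups overlapped, and the gene was left out of the test. Its near-identical copies LGALS9B and LGALS9C had from 0 to 3 reads in every library, and reads that match several copies were not measured. A difference in LGALS9 was not detectable at this depth.

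Across the members tested, EWSR1::FLI1 low replicate 1 held the lowest doxycycline value of 9 of 9, against 57.0% of all genes, and replicate 2 the highest of 6 of 9, against 26.2% of all genes. Replicate 1 was below every untreated library for PVR, ICAM1 and MICB, 3 of the 9 members, against 49.99% of all genes. Without replicate 1, 4 of the 9 members were called at an adjusted p under 0.01, namely CD274, PDCD1LG2, CD47 and MICA, all higher upon knockdown. In the same fit 10.2% of the 14907 genes tested rose, and calls over all genes in either direction went from 1222 to 2334. Leaving out any other library gave from 0 to 1 member called.

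**Figure D4:**
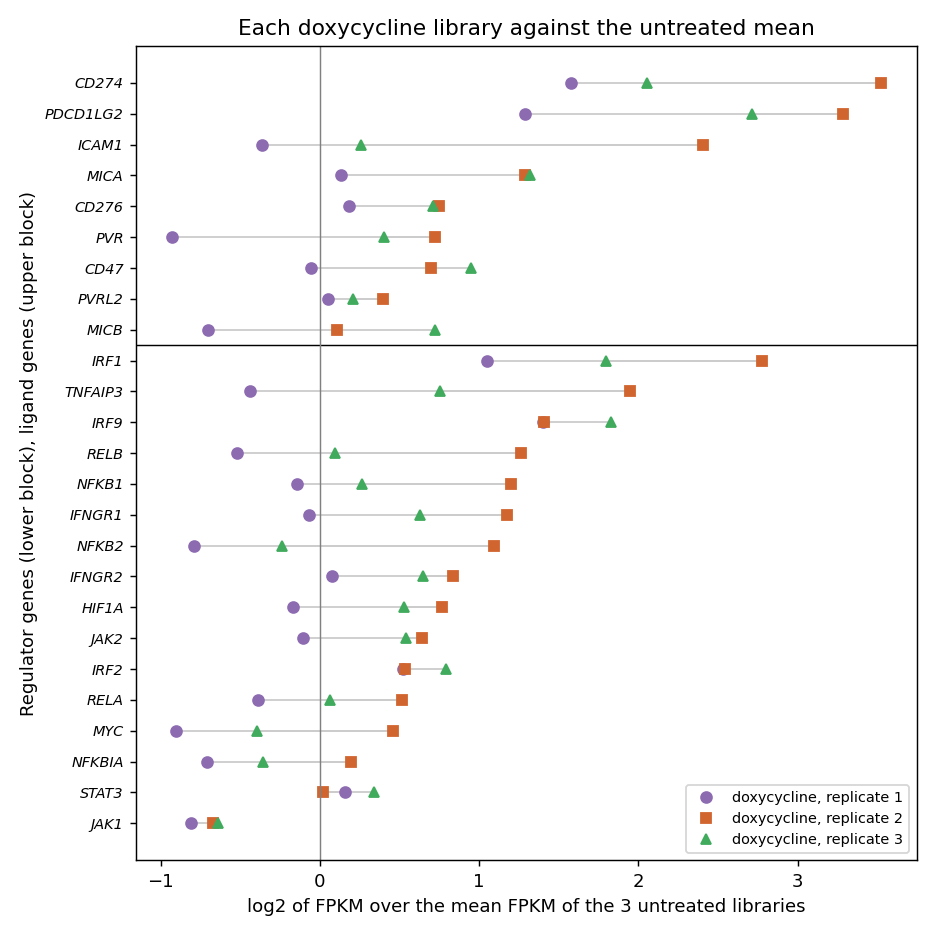
Log2 of the FPKM in each doxycycline library over the mean FPKM of the 3 untreated libraries, for the 9 ligand genes tested (upper block) and regulator genes tested (lower block), with 1 symbol per replicate. Replicate 2 (squares) is the highest for ICAM1, CD274, IRF1 and the NF-κB genes TNFAIP3, RELB, NFKB1 and NFKB2. It is also the highest for MYC, HIF1A, IFNGR1, IFNGR2 and JAK2. Replicate 1 (circles) is the lowest of the 3 in most genes.

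Known regulators of these ligands, a list of 19 genes of the interferon, JAK-STAT and NF-κB pathways with MYC and HIF1A, were examined in the same libraries. Of the 17 tested, 1 rose (IRF9, a DNA-binding factor of type I interferon signalling, from 4.36 to 12.9 FPKM, log2 fold change 1.36, adjusted p = 0.0015, limma) and 0 fell at an adjusted p under 0.01. Over all genes tested, 4.51% rose and 3.37% fell at the same limit. The median log2 fold change of the 17 was 0.34. IRF1, the interferon-induced factor that acts on the CD274 promoter, was at 2.23, 2.44 and 2.76 FPKM without and at 5.13, 16.9 and 8.58 FPKM with doxycycline (log2 fold change 1.55, adjusted p = 0.014, limma), so its groups did not overlap. The order of its doxycycline libraries was that of CD274, but also that of IFNGR1, IFNGR2, JAK2, MYC and HIF1A. The members CD276, PVR and PVRL2 had it too, so the order is not particular to IRF1 and CD274. A link between IRF1 and CD274 was not tested. For JAK1, a kinase of the interferon receptors, the log2 fold change was -0.70 (adjusted p = 0.0129).

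The NF-κB genes of the list followed the ICAM1 order of libraries, but regulators outside this pathway shared that order. The highest of the 3 EWSR1::FLI1 low values was in replicate 2 for 12 of the 17 regulators, against 26.2% of all genes. The lowest was in replicate 1 for 16 of 17, against 57.0% of all genes. NFKB1 had 23.8, 60.4 and 31.6 FPKM in the doxycycline libraries, against 24.9 to 27.5 FPKM in the untreated ones. RELB was at 5.19, 17.9 and 7.95 FPKM and TNFAIP3, an NF-κB-induced inhibitor of the pathway, at 7.14, 37.4 and 16.3 FPKM. For these 3 genes, as for ICAM1, replicate 2 was above and replicate 1 below every untreated library. The same held for MYC and HIF1A, listed apart from the NF-κB genes. MYC had 23.6, 60.6 and 33.5 FPKM with doxycycline, against 38.6 to 54.1 FPKM without. HIF1A had 109, 208 and 177 FPKM with it, against 115 to 135 FPKM without. This order of libraries is thus not particular to NF-κB genes. NFKBIA, an NF-κB inhibitor gene of the same list, had 115, 94.6 and 80.2 FPKM without and 59.2, 111 and 75.6 FPKM with doxycycline. Its replicate 2 thus lay within the untreated range, and its log2 fold change was -0.27 (adjusted p = 0.498, limma). The regulators named with values or orders, other than IRF9, were named after their values were seen. The part of this library difference in the values of CD274, PDCD1LG2 and ICAM1 was not tested.

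In 6 lists of related genes, 76 of 101 were tested, 9 rose and 1 fell at an adjusted p under 0.01. The shares over all genes, 4.51% that rose and 3.37% that fell, also stand beside the count of each list below. In lists this short, 1 call says little about the list. Of 16 further checkpoint ligands tested, 2 rose and 0 fell, with a median log2 fold change of 0.39. LGALS3, galectin-3, a ligand of the T cell receptor LAG-3, rose from 4.34 to 15.1 FPKM (log2 fold change 1.59, adjusted p = 0.000384, limma). CEACAM1, a ligand of TIM-3, rose from 0.347 to 2.13 FPKM (1.21, adjusted p = 0.00177). Both had doxycycline values within 1.42 times of each other, against 3.86 times for CD274 and 3.996 times for PDCD1LG2.

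Of 13 further NK cell ligands tested, 0 rose and 0 fell, with a median of 0.18, 3 had an unadjusted p under 0.05 in limma, and limma-voom called 0 at an adjusted p under 0.01. At an adjusted p under 0.05, the NKG2D ligand ULBP3 (2.07, 2.73 and 3.69 against 4.90, 11.6 and 14.1 FPKM, adjusted p = 0.0178) and the NKp80 ligand CLEC2B (adjusted p = 0.0377) were higher, both named after their values were seen.

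The 11 other adhesion ligands tested included 4 that rose and 0 that fell, with a median of 0.55. VCAM1, an integrin ligand which like ICAM1 is known as an NF-κB target, was at 10.4, 8.42 and 7.62 FPKM without and at 53.5, 129 and 52.5 FPKM with doxycycline (log2 fold change 2.89, adjusted p = 0.000702, limma). Replicate 2 was again the highest, but unlike ICAM1 all 3 doxycycline libraries were far above the untreated ones. ALCAM, the ligand of CD6 on T cells (1.62, adjusted p = 0.00691), the matrix protein fibronectin (FN1, 1.57, adjusted p = 0.00159) and the junctional adhesion molecule JAM2 (0.96, adjusted p = 0.00911) rose as well.

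Factors that shed or stabilise the ligands numbered 10 tested, with 1 that rose, 0 that fell and a median log2 fold change of 0.23. The gene that rose was MMP14, a membrane metalloprotease able to shed MICA, with 11.5, 10.5 and 11.4 FPKM without and 36.1, 68.8 and 52.0 FPKM with doxycycline (2.09, adjusted p = 0.000667, limma). Of 9 receptors and binding partners tested, 1 rose and 1 fell, with a median of -0.15. Both are partners of CD47: SIRPA, the macrophage receptor, fell from 14.5 to 6.50 FPKM (-1.05, adjusted p = 0.00519), and THBS1, the secreted thrombospondin-1, rose from 0.546 to 18.0 FPKM (3.58, adjusted p = 4.3e-05).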

How the data were processed

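The 6 RNAseq samples of A673/TR/shEF cells, 3 per condition, were grouped by their labels. The authors prepared ribosomal RNA-depleted libraries and aligned the reads to GRCh37 with STAR 2.5.0b. The values deposited by the authors are FPKM per gene symbol and library, without pooling. The authors also deposited a mean signal per gene (the mean normalized count of the 6 libraries), which with the FPKM gave whole reads in 100% of values in every library (tolerance 0.1 reads). The authors' own comparison made with DESeq2 1.6.3 (fold changes and p-values) was not used. A depth of 6980361 to 16658933 reads on genes and a floor of 3 reads limit low genes, for counting error only.

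The 15504 genes whose FPKM averaged 0.5 or more entered limma 3.58.1 (R 4.3.3, lmFit and eBayes with a trend) as log2(FPKM + 1), and EWSR1::FLI1 low was compared to high, with Benjamini-Hochberg adjustment and a limit of 0.01. Single genes were also compared with a two-sided exact permutation test. The fit was tested on simulated data. Named genes are all members, FLI1, and of each list those with an adjusted p under 0.01, at most the 4 with the largest change in each direction. Members and lists were chosen with earlier results of these data known. Lists are described by counts and medians, and 1 regulator gene counted in its list is not reported here. Same-condition libraries differed by more than sampling noise (chi-square per degree of freedom 4.32 to 32.1), so each counts as 1 replicate. Coordinates are those of GENCODE 44 lifted to GRCh37, and promoters those of RefSeq. Alternatives were a pseudocount of 0.1, other filters, median-ratio scaling and quantile normalization, no trend, a replicate block, sample quality weights, limma-voom on recovered reads, other limits and leaving out each library. Counting was not known to use strand, and CEACAM19, on the strand of PVR which it overlaps, was at most 0.600 FPKM.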

Additional observations from a re-analysis of the deposited data

How the results depend on the processing

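Of 9 members tested, 0 were called at an adjusted p under 0.01, and the count moved to 2 with a pseudocount of 0.1, 1 with a mean FPKM of at least 1, 1 with quantile normalization, 6 with sample quality weights, 2 with limma-voom, 2 at an adjusted p under 0.05 and 0 to 4 when 1 library was left out. The 1222 calls over all genes became 753 without a filter, 1992 with quantile normalization, 4745 with sample quality weights, 3067 at an adjusted p under 0.05, 158 at the limits of the study (a log2 fold change over 2.5 or under -2.5 as well) and 475 to 2334 when 1 library was left out. The 10 calls in the related lists became 6, 16, 42, 17, 2 and 4 to 28 under the same settings. Of 15504 genes tested, 1312 were called with a pseudocount of 0.1 and 1729 with limma-voom. Of these, 772 and 945 were higher upon knockdown. With a mean FPKM of at least 1, 1313 of 12578 genes were called, 726 of them higher. Quantile normalization called 992 and sample quality weights 2488 of the 15504 genes as higher. In the fit with sample quality weights, EWSR1::FLI1 low replicate 2 had a weight of 2.79, against 0.172 and 0.463 in replicates 1 and 3. The cause of these shifts in the counts was not tested. Under these settings 49.8% (quantile normalization) of the calls over all genes were higher upon knockdown, 37.6% without EWSR1::FLI1 low replicate 3 and 67.2% without EWSR1::FLI1 high replicate 3, against 57.3%.

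With a replicate block 2 members (CD274 and PDCD1LG2), 1702 genes in all and 14 related genes were called, but same-numbered libraries share only a number: their deviations from the group means correlated with r = 0.27, 0.09 and 0.12 across genes, and those of different numbers with r from -0.29 to 0.19.

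The log2 fold changes of CD274, PDCD1LG2, CD276, CD47, PVRL2 and MICA kept their sign in all 15 alternative fits. The other members tested, with changes near 0 or set by 1 library, did not: PVR ranged from -0.22 to 0.53 and ICAM1 (1.84 with sample quality weights) from -0.040 to 1.27 when 1 library was left out, and MICB was -0.094 with quantile normalization and ranged from -0.089 to 0.17 when 1 library was left out. Median-ratio scaling changed no call, since the deposited values were already scaled in this way. Depth limits LGALS9 and, in EWSR1::FLI1 high cells, the PD-1 ligands.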

Other observations

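Further ligands not named by the rule lay between the limits of 0.05 and 0.01. CD24, a ligand of Siglec-10 on macrophages, had 15.1, 16.6 and 22.2 FPKM without doxycycline and 22.9, 46.8 and 62.8 FPKM with it (replicates 1 to 3) (log2 fold change 1.16, adjusted p = 0.0441, limma). ICAM3, a further LFA-1 ligand, was at 0.589, 1.06 and 0.870 FPKM without and at 1.83, 2.47 and 3.35 FPKM with doxycycline (0.94, adjusted p = 0.0137). RGMB, which binds PD-L2, was at 3.79, 4.52 and 4.74 FPKM without and at 6.68, 21.2 and 11 FPKM with doxycycline (1.25, adjusted p = 0.0321), with replicate 2 again the highest. CD24, ICAM3 and RGMB were named after their values were seen. Their groups did not overlap, for CD24 by a narrow margin (22.9 against 22.2 FPKM). Over all genes tested, 17.5% had every EWSR1::FLI1 low library above every EWSR1::FLI1 high library. Since these genes were picked by their adjusted p, the lack of overlap adds little.

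The long implied gene length of MICA and MICB was shared by other genes of their chromosome 6 region in the lists. The implied length was 7.32 times the annotated exon length for HLA-E, 5.59 times for HLA-G and 6.35 times for BAG6, all chosen after their values were seen. HLA-E, the ligand of the NK cell receptor NKG2A, was at 4.79, 5.02 and 7.0 FPKM without and at 6.64, 13.2 and 10.9 FPKM with doxycycline (log2 fold change 0.74, adjusted p = 0.0729, limma).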
